A study of Bos taurus with 16 samples.

Results

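Transcripts of 8 enzymes and partners that write, copy and remove DNA methylation (DNMT1, UHRF1, DNMT3A, DNMT3B, TET1, TET2, TET3 and TDG) were followed in bovine blastocysts and bovine embryonic stem cells (bESCs) cultured with LY2955303, an inhibitor of retinoic acid receptor gamma (RARγ). The genes were taken by name as the core of the pathway, not by any measured value, and all 8 were found in each of the 3 deposited tables, which list 38959, 37429 and 28303 genes. Each blastocyst library came from 1 wild-type embryo made by in vitro fertilization and amplified by SMART-seq, so a library mixes trophectoderm, epiblast and hypoblast cells. In the first experiment, embryos were cultured from the 2-cell stage with 10 uM LY2955303 (LY10, n = 3) or with DMSO, the vehicle (DMSO, n = 3). In the second experiment, LY2955303 was given from the 2-cell stage (cell2_LY, n = 2) or from the 16-cell stage (cell16_LY, n = 2), and the group whose treatment is given as LY2955303_DMSO (LY_DMSO, n = 2) served as its control; the labels give no dose for these groups. Wild-type bESCs were grown on mouse fibroblast feeders with LY2955303 (bESC_LY, n = 2) or in their culture medium (bESC_tifx, n = 2), and their RNA was extracted with a column kit in place of the single-embryo kit. The labels put all 16 libraries in batch 1 and do not say whether libraries of a group came from separate fertilizations or cultures, so each p-value measures only the spread between these libraries.

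When DNA is replicated, the new strand lacks methyl groups: UHRF1 recognizes the half-methylated site and DNMT1 copies the mark onto the new strand. DNMT3A and DNMT3B place methyl groups on unmethylated sites. TET1, TET2 and TET3 oxidize 5-methylcytosine, and TDG excises the most oxidized forms so that base excision repair can restore plain cytosine. In mammalian embryos, methylation inherited from the gametes is lost during cleavage and set again from about the blastocyst stage, and these enzymes are the machinery on both sides of that turn.

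Depth ranged from 7905768 to 17343140 reads on genes in the blastocysts and from 29055323 to 31230432 in the bESCs. A level is given either as FPKM (fragments scaled by gene length and library size), for comparing genes, or as a normalized count (reads scaled to the mean library size of a table), for comparing libraries. RPM, reads scaled only by the library size behind the FPKM, serves to compare embryos with bESCs. All 8 enzymes passed the filter on low values, a mean normalized count of at least 10, in every table. A count of 0 would have allowed up to 4.09 normalized counts in the shallowest blastocyst, and every enzyme had reads in every library. The fewest were the 7 reads of UHRF1 in DMSO replicate 3 (95% Poisson interval 2.81 to 14.4; such intervals cover counting error only).

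Some libraries stood apart from the rest of their group. Across 14249 genes, DMSO replicate 3 had a Spearman's rho of 0.903 to 0.927 with the 3 LY10 libraries but of 0.883 and 0.844 with the other DMSO libraries. In cell2_LY replicate 1, the library size behind the FPKM was 1.23 times the reads on genes, against 0.949 to 1.07 times in the other blastocysts. Reads on the Y-linked genes DDX3Y, EIF1AY, USP9Y and ZRSR2Y (2123 to 3397 reads) were present in 6 blastocysts, namely DMSO replicate 3, LY10 replicate 1, LY_DMSO replicate 1, cell16_LY replicate 2 and both cell2_LY libraries, and were at 0 in the other 6. The cell2_LY group thus held only libraries with Y-linked reads, so this difference between embryos and the treatment cannot be told apart there.

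The tissue labels were checked against cell type markers. Trophectoderm markers summed to 6555 to 19011 RPM in the blastocysts and to 232 to 713 in the bESCs, where GATA3 lay at 0.28 to 1.29 RPM. POU5F1, an epiblast and stem cell factor, lay at 178 to 662 RPM in blastocysts and at 1047 to 1210 in bESCs. The hypoblast marker SOX17 was at 0 to 0.37 RPM in the blastocysts and GATA4 at 0.30 to 1.54, while the 8 hypoblast markers together summed to 265 to 763. Fibroblast markers summed to 279 to 309 RPM in the bESCs.

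All 8 gene positions in the blastocyst tables equal those of the RefSeq annotation of assembly ARS-UCD2.0. The maintenance pair lies on chromosome 7, DNMT1 at chr7:14679336-14730638 and UHRF1 at chr7:19223876-19257799, both on the minus strand. DNMT3A lies at chr11:73971517-74074893 and DNMT3B at chr13:62142409-62176735, both on the plus strand. TET1 lies at chr28:24907396-25044214 (plus), TET2 at chr6:19895939-20039291 (minus), TET3 at chr11:10555697-10667899 (minus) and TDG at chr5:67632492-67653342 (plus). Gene lengths in the tables ran from 3386 bases for TDG to 33677 bases for TET2. The bESC table used shorter gene models, from 3214 bases for TDG to 10877 for DNMT3A, and TET2 was 7056 bases long there. FPKM values of DNMT3A and the TET genes are therefore not on 1 scale across embryos and bESCs, and RPM is given as well. RPM is not divided by gene length, but a longer gene model can collect more reads.

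In the blastocyst, the de novo methyltransferase DNMT3A, the oxidase TET1 and the glycosylase TDG led, while the maintenance pair was low. Over the 12 blastocysts, DNMT3A lay at 10.6 to 58.7 FPKM with a median of 30.9. TET1 had a median of 28.5 FPKM (15.6 to 47.4) and TDG one of 22.4 FPKM (13.7 to 32.4). These neighbors in the order were close: DNMT3A was above TET1 in 7 of 12 libraries, and TET1 was above TDG in 9 of 12. DNMT3B followed at a median of 11.3 FPKM (2.71 to 25.1), below TDG in 11 of 12 libraries.

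The other 4 genes lay lower. DNMT1, the maintenance methyltransferase, had a median of 1.94 FPKM (1.2 to 3.21) and was below DNMT3B in 12 of 12 libraries. UHRF1, which brings DNMT1 to replicated DNA, had a median of 0.805 FPKM (0.157 to 1.74). TET3, the oxidase known for its role in the zygote, had a median of 1.28 FPKM (0.534 to 2.04) and TET2 one of 0.407 FPKM (0.251 to 0.965). The ranges of all neighbors in this order overlapped. TET1 made up 90.3% to 97.3% of the summed FPKM of the 3 TET genes in every blastocyst, with a median of 94.0%.

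**Figure D1:**
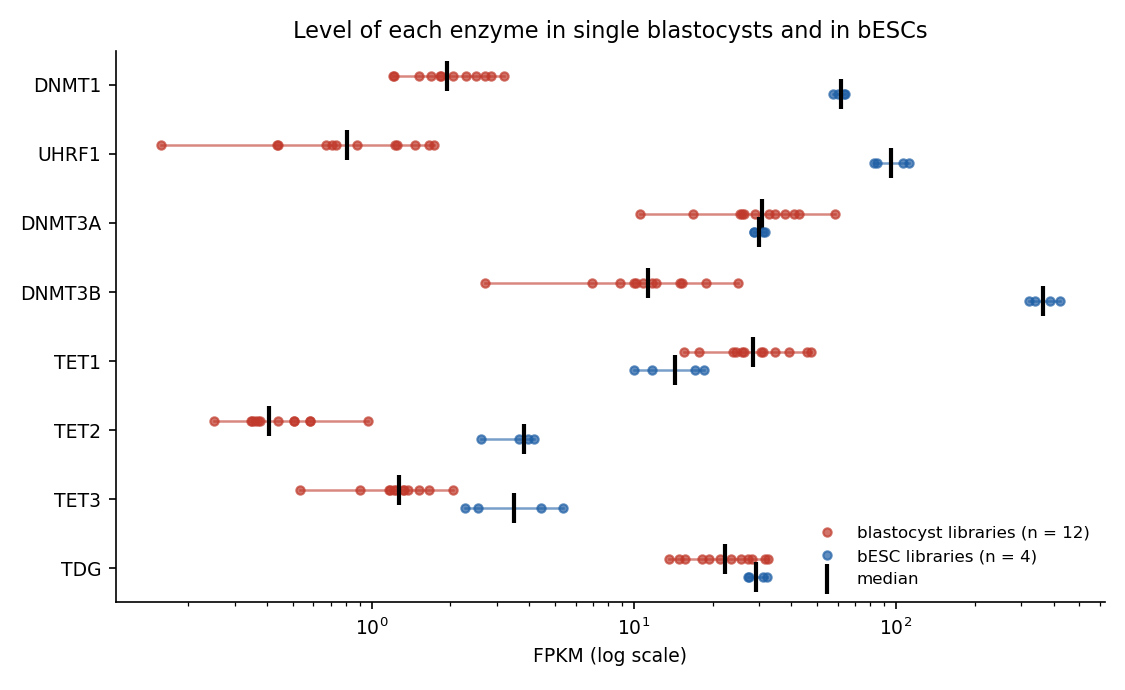
FPKM (log scale) of the 8 enzymes in 12 single blastocysts (red) and 4 bESC libraries (blue); each point is a library, each line spans the range and each black bar is the median. DNMT1, UHRF1 and DNMT3B of the bESCs lie to the right of all blastocysts, with medians of 61.8, 95.8 and 365 FPKM against 1.94, 0.805 and 11.3 FPKM.

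How much a gene varied over the 12 blastocysts, with treated and control groups of both experiments pooled, differed widely. The highest blastocyst exceeded the lowest 11-fold in FPKM for UHRF1, 9.25-fold for DNMT3B and 5.55-fold for DNMT3A. The lowest UHRF1 value, 0.157 FPKM in DMSO replicate 3, rests on 7 reads, and the next lowest was 0.435 FPKM. For DNMT3B, DMSO replicate 2 was the lowest and cell2_LY replicate 1 the highest. For TET2, TET3 and TET1 this ratio was 3.85, 3.82 and 3.04. DNMT1 and TDG varied least, at 2.67 and 2.37.

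In bESCs, the order was a different one. DNMT3B led at a median of 365 FPKM (322 to 423), UHRF1 followed at 95.8 FPKM (82.5 to 112) and DNMT1 at 61.8 FPKM (57.4 to 64.3), and none of these ranges overlapped. DNMT3A (28.8 to 31.7 FPKM) and TDG (27.3 to 32.1 FPKM) came next and overlapped each other. TET1 lay at 10.1 to 18.5 FPKM, and TET2 (2.62 to 4.17 FPKM) and TET3 (2.27 to 5.35 FPKM) overlapped at the bottom. TET1 made up 64.7% to 68.3% of the summed TET FPKM.

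In RPM, UHRF1 ranged from 322 to 438 in bESCs and from 0.719 to 7.94 in blastocysts, a 101-fold difference between the medians. DNMT3B ranged from 1214 to 1595 against 11.6 to 107, a 28.5-fold difference of medians. DNMT1 ranged from 316 to 354 against 8.52 to 22.7, a 24.7-fold difference. For these 3 of 8 genes, all bESC libraries lay above all blastocysts, as they did for 42.2% of the 13836 genes compared. TET1 was the reverse, at 64.5 to 119 RPM in bESCs against 248 to 756 in blastocysts, a median 4.91-fold higher in the blastocysts. It was the only 1 of 8 with all bESC libraries below all blastocysts, which held for 18.2% of genes. TET1 was 15949 bases long in the blastocyst tables and 6414 in the bESC table. The part of these lengths in its RPM difference was not tested. On FPKM, TET1 overlapped and TET2 and TET3 lay higher in the bESCs without overlap, 9.35-fold and 2.73-fold between medians. DNMT3A ranged from 313 to 345 RPM in bESCs and from 211 to 1173 in blastocysts, and it overlapped on either scale, as did TDG. Cell type, extraction kit, gene models and table all differ between embryos and bESCs and cannot be told apart, and in bulk libraries fewer cells of a type and less RNA per cell cannot be told apart either. The 18 DNA replication genes listed for context summed to 4213 to 4438 RPM in bESCs and to 1355 to 3049 in blastocysts, and their part in the difference was not tested.

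The balance of the de novo enzymes was opposite in the embryo and in the stem cell. DNMT3A exceeded DNMT3B in FPKM 1.70- to 3.90-fold in every blastocyst, with a median of 2.65. DNMT3B exceeded DNMT3A 10.9- to 13.5-fold in every bESC library, with a median of 12.3. The size of these ratios depends on the gene models, since DNMT3A is 19992 bases long in the blastocyst tables and 10877 in the bESC table. DNMT3B is 4272 and 3774 bases long there. Median RPM, which is not corrected for these lengths, was 618 for DNMT3A and 48.4 for DNMT3B in blastocysts. In bESCs it was 326 and 1378. Whether the direction depends on the gene models was not tested.

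**Figure D2:**
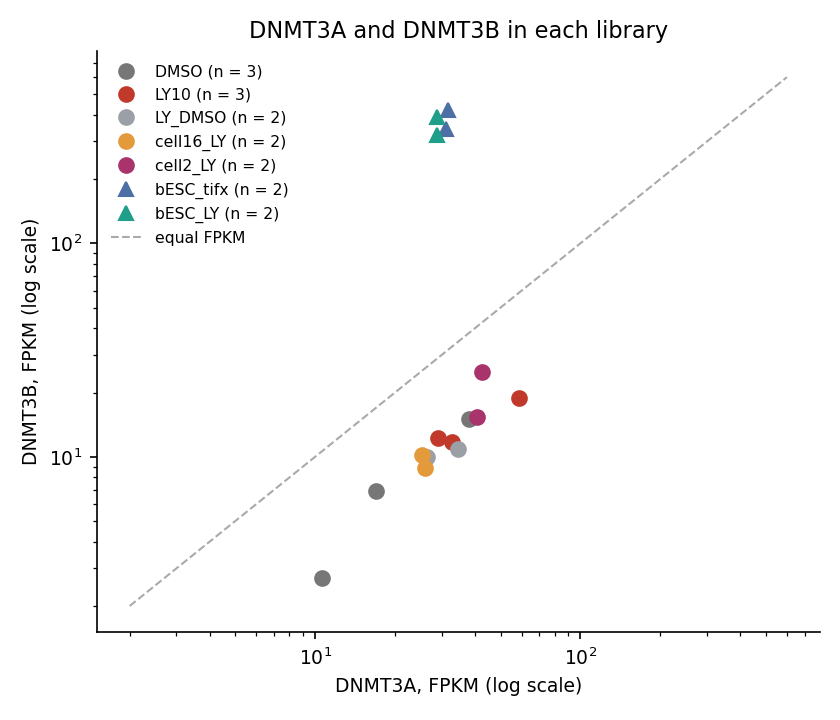
FPKM of DNMT3A (horizontal) and DNMT3B (vertical), both on log scales, in each library, colored by group; circles are blastocysts, triangles are bESCs and the dashed line marks equal FPKM. All 12 blastocysts lie below the line and all 4 bESC libraries lie above it.

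Across the 12 blastocysts, the levels of DNMT3A and DNMT3B ran close together. After each gene was centered on its mean within each table, their log2 levels differed by a root mean square of 0.265, and only 14 of 9318 genes had a pattern closer to that of DNMT3A. The 3 genes closest to DNMT3A, the other enzymes aside, were CMTM4 (0.191), RHOC (0.224) and HDLBP (0.225), and those closest to DNMT3B were SPECC1L (0.236), DSP (0.272) and SFN (0.274). TDG ran closest to ZDHHC6 (0.158) and TET1 to UBE2D4 (0.118). DNMT1 ran closest to NUP58 (0.207), TET2 to TTF1 (0.237) and TET3 to CDKN2AIPNL (0.232). UHRF1 had no neighbor as close, with CCDC28B at 0.337, but the distances were not scaled for how much a gene varied. UHRF1 itself varied most, at a root mean square of 0.915 around its means, against 0.378 for DNMT1. The 7 reads of DMSO replicate 3 are among its values. DNMT1 and UHRF1 differed by a root mean square of 0.904, near the spread of UHRF1 itself. DNMT1 was still the enzyme closest to UHRF1, with 1785 of 9318 genes closer, while 8376 genes were closer to DNMT1 than UHRF1 was. These libraries share treatments and the difference in Y-linked reads, so the values are descriptions only.

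Whether LY2955303 altered these enzymes in the embryo was asked first with LY10 against DMSO. TDG was higher in every LY10 library than in every DMSO library. No enzyme passed the threshold of the study, an unadjusted p under 0.05 with an absolute log2 fold change above 1 (limma), which 14.7% of the 14249 genes tested passed. In all comparisons, rose and fell mean past this threshold, and the p-values printed are adjusted over all genes tested. TDG alone had a p under 0.05, 1 of 8 against 22.9% of all genes, and it alone had groups that did not overlap, 1 of 8 against 28.1%. The median log2 fold change of the 8 genes was 0.49, against -0.05 for all genes, and their lowest adjusted p was 0.0959.

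TDG had normalized counts of 494, 535 and 700 in the DMSO libraries and of 924, 1019 and 1169 in the LY10 libraries. The group means were 576 ± 109 and 1038 ± 123 (SD, n = 3), and no library of one group reached the other. The log2 fold change was 0.86 (SE 0.24, limma adjusted p = 0.0959), a 1.81-fold higher level with a 95% interval of 1.25 to 2.62. With each library left out in turn, it stayed between 0.75 and 1.01 and the unadjusted p stayed under 0.05, with adjusted p from 0.031 to 0.241. An exact permutation test of this gene alone, with 3 libraries against 3, cannot go below p = 0.1. Beside it, the 18 DNA replication genes summed to 1355 to 2050 RPM in DMSO and 2487 to 3049 in LY10, and their part in the TDG difference was not tested.

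DNMT3A had normalized counts of 3597, 2251 and 8078 in DMSO and of 12499, 6175 and 7000 in LY10. The means were 4642 ± 3051 and 8558 ± 3438, and DMSO replicate 3 lay within the LY10 range. The log2 fold change was 1.02 (95% interval -0.03 to 2.06, limma adjusted p = 0.229). DNMT3B followed the same order of libraries in DMSO, at 314, 123 and 683, and had 856, 555 and 535 in LY10. Its log2 fold change was 1.08 (-0.16 to 2.33, adjusted p = 0.273). For both genes, replicate 2 was the lowest and replicate 3 the highest of the DMSO libraries.

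These values depended on DMSO replicate 3, the library that stood closer to the LY10 libraries. Without it, DNMT3A had a log2 fold change of 1.52 (limma adjusted p = 0.0425), DNMT3B one of 1.68 (adjusted p = 0.0527) and TDG one of 1.01 (adjusted p = 0.031). All 3 of 8 were then past the threshold, but so were 23.4% of all genes, against the 14.7% with that library. Without LY10 replicate 2, DNMT3A was past it as well, at 1.21 (adjusted p = 0.289). A term for Y-linked reads in the fit was added after the data were seen. DMSO and LY10 each held 1 library with such reads, so the term cannot move these log2 fold changes. It can alter only their spread: the limma adjusted p was then 0.0503 for DNMT3A and 0.125 for DNMT3B.

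The remaining enzymes overlapped between DMSO and LY10. TET1 was at 5204, 4385 and 6654 normalized counts in DMSO and 8053, 5295 and 7793 in LY10, a log2 fold change of 0.38 (95% interval -0.20 to 0.95). TET2 was at 132, 346 and 126 against 90.0, 182 and 124, a log2 fold change of -0.50 (-1.55 to 0.56), with DMSO replicate 2 the single high library. TET3 was at 269, 161 and 219 against 155, 200 and 119, a log2 fold change of -0.45 (-1.20 to 0.30). All 3 intervals span 0, and that of TET1 still holds the 0.86 measured for TDG.

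The maintenance pair also overlapped. DNMT1 was at 205, 127 and 188 normalized counts in DMSO and at 139, 242 and 172 in LY10, a log2 fold change of 0.08 (95% interval -0.68 to 0.84). UHRF1 was at 80.7, 59.7 and 7.66 in DMSO and at 32.7, 61.0 and 71.2 in LY10. Its log2 fold change of 0.60 (-1.28 to 2.49) came from the low DMSO replicate 3 and turned to -0.40 without that library.

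**Figure D3:**
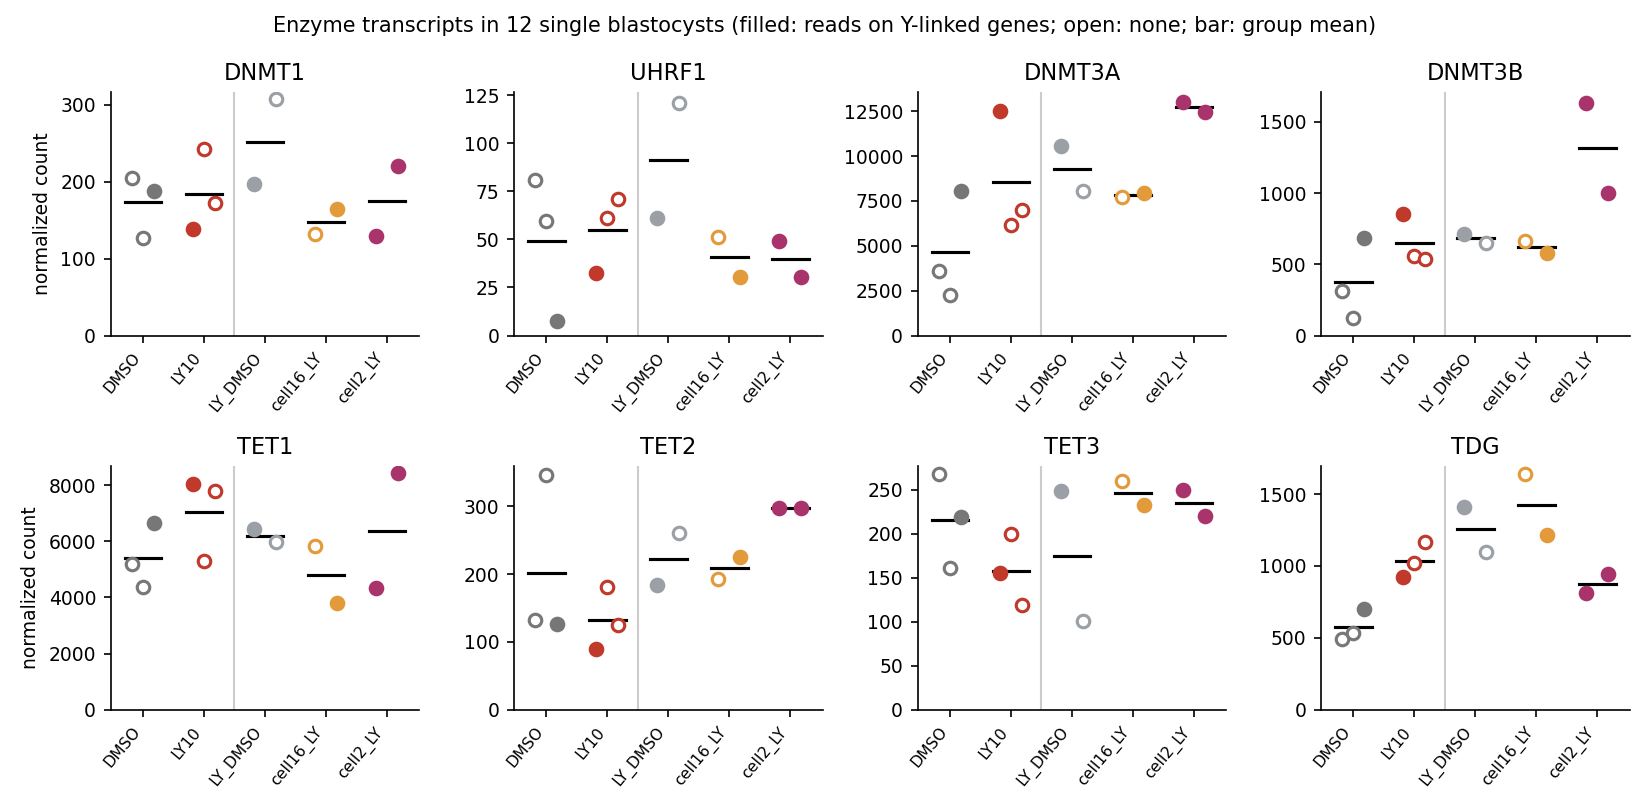
Normalized counts of the 8 enzymes in the 12 blastocysts by group; each point is 1 embryo, filled where Y-linked genes had reads and open where they had none, each bar is a group mean and the gray line parts the 2 experiments, which were scaled separately. TDG lies at 494 to 700 in DMSO and 924 to 1169 in LY10, and DNMT3B lies at 1000.2 and 1634 in cell2_LY against 577 to 710 in the other groups of its experiment.

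The second experiment asked when the inhibitor acts, with treatment from the 2-cell or the 16-cell stage. DNMT3B was higher with treatment from the 2-cell stage than in the control, and its level with treatment from the 16-cell stage lay close to that of the control. In cell2_LY against LY_DMSO, no enzyme passed the threshold that 17% of the 14529 genes passed, and 1 of 8, DNMT3B, had a p under 0.05, against 24.6% of genes. The median log2 fold change of the 8 was 0.20, against 0.00287 for all genes, and the lowest adjusted p was 0.129. With 2 libraries a group, groups that do not overlap were common: they held for 5 of 8 enzymes and 53.7% of all genes here, for 4 of 8 and 42.9% in cell16_LY against LY_DMSO, and for 4 of 8 and 54.5% in cell16_LY against cell2_LY.

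DNMT3B had normalized counts of 710 and 652 in LY_DMSO, 662 and 577 in cell16_LY and 1634 and 1000.2 in cell2_LY. The means were 681 ± 40.6, 619.6 ± 59.8 and 1317 ± 448 (SD, n = 2), and both cell2_LY libraries lay above the other 4. The log2 fold change of cell2_LY against LY_DMSO was 0.91 (SE 0.31, limma adjusted p = 0.129), a 1.88-fold difference. Much of it came from cell2_LY replicate 1, without which the log2 fold change was 0.55 (limma adjusted p = 0.401), and without LY_DMSO replicate 2 it was 0.85 (adjusted p = 0.345). With the term for Y-linked reads it was 0.93 (adjusted p = 0.262). The unadjusted p was under 0.05 with the term and not without either of those libraries.

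DNMT3A had 10541 and 8061 normalized counts in LY_DMSO, 7737 and 7923 in cell16_LY and 13027 and 12437 in cell2_LY. The 2 cell2_LY libraries were again the highest, at a mean of 12732 ± 417 against 7830.0 ± 131 for cell16_LY. Against LY_DMSO, the log2 fold change was 0.47 (95% interval -0.14 to 1.07) for cell2_LY and -0.24 (-0.84 to 0.37) for cell16_LY, neither past the test. Both cell2_LY libraries had Y-linked reads, and across the 4 blastocyst groups that held embryos of both kinds, the libraries with Y-linked reads were above those without for DNMT3A in 4 of 4 groups. For UHRF1 they were below in 4 of 4 groups. Such a full separation upward held for 5.75% of the 13019 genes listed in both tables and a downward one for 6.11%. DNMT3B and TET1 were higher with Y-linked reads in 3 of 4 groups, TET2 was lower in 3 of 4, and TDG was higher in 2 and lower in 2.

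Between the treatment times, cell16_LY against cell2_LY, 3 of 8 enzymes had a p under 0.05, against 17.9% of genes, and DNMT3B alone, 1 of 8, passed the threshold that 11.3% of genes passed. DNMT3B fell by 1.05 on the log2 scale (SE 0.31, limma adjusted p = 0.193), so that cell16_LY held 0.484 times the level of cell2_LY. DNMT3A had a log2 fold change of -0.70 (SE 0.26, adjusted p = 0.237), or 0.615 times the level. TDG had a log2 fold change of 0.69 (SE 0.28, adjusted p = 0.258), or 1.61 times the level.

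Single libraries weighed on each of these values. Without cell2_LY replicate 1, DNMT3B was at -0.69 (limma adjusted p = 0.514), and without cell16_LY replicate 2 it was at -0.95 (adjusted p = 0.514), so that it missed the threshold in both cases. The unadjusted p of DNMT3A was above 0.05 without cell16_LY replicate 1 (adjusted p = 0.77) and without replicate 2 (adjusted p = 0.571). That of TDG was above 0.05 without cell16_LY replicate 1 (adjusted p = 0.814) and without cell2_LY replicate 1 (adjusted p = 0.59). With the term for Y-linked reads, DNMT3B kept -1.07 (adjusted p = 0.41), while DNMT3A at -0.60 (adjusted p = 0.476) and TDG at 0.67 (adjusted p = 0.46) no longer had an unadjusted p under 0.05.

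For cell16_LY against LY_DMSO, 0 of 8 enzymes had a p under 0.05 in limma, adjusted or not, against 7.62% of genes, and 0 passed the threshold that 5.22% of genes passed. The largest log2 fold changes were those of UHRF1, at -1.11 (95% interval -2.49 to 0.27), and of DNMT1, at -0.73 (-1.69 to 0.22). UHRF1 had 61.2 and 121 normalized counts in LY_DMSO, 51.1 and 30.3 in cell16_LY and 49.1 and 30.6 in cell2_LY, and its cell2_LY value was -1.13 (-2.51 to 0.25). DNMT1 had 196 and 308 in LY_DMSO, 132 and 164 in cell16_LY and 130 and 220 in cell2_LY, where its log2 fold change was -0.54 (-1.49 to 0.42). For UHRF1 the 4 treated libraries lay below both controls, and for DNMT1 they did not. Both contrasts share the LY_DMSO libraries, and LY_DMSO replicate 2 was the highest library of the 6 for either gene.

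No TET gene had a p under 0.05 in these comparisons (limma, lowest adjusted p = 0.436). TET1 was at 6420.3 and 5969 normalized counts in LY_DMSO, 5841 and 3788 in cell16_LY and 4327 and 8439 in cell2_LY, so that the cell2_LY libraries enclosed the control and both cell16_LY libraries lay below it, with a log2 fold change of -0.40 (95% interval -1.23 to 0.44). TET2 was at 184 and 261, 192 and 225, and 298 and 298 in the same order of groups, with a log2 fold change of 0.44 (95% interval -0.33 to 1.21) for cell2_LY, whose libraries lay above the other 4. TET3 was at 249 and 101 in LY_DMSO, 260.3 and 233 in cell16_LY, and 250.1 and 220.0 in cell2_LY. LY_DMSO replicate 2 was the single low library of TET3, and the log2 fold changes were 0.56 for cell2_LY (adjusted p = 0.468) and 0.63 for cell16_LY (limma adjusted p = 0.782).

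**Figure D4:**
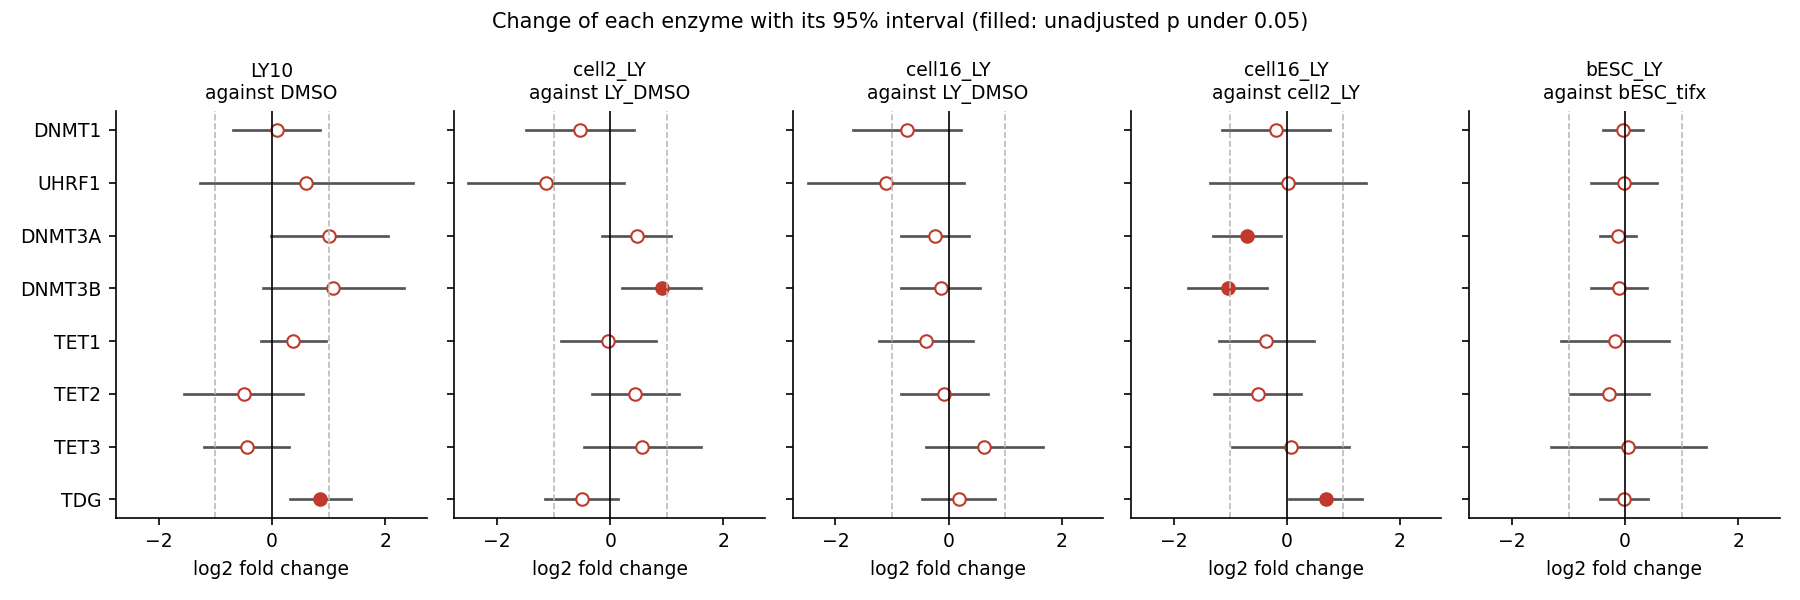
Log2 fold change of each enzyme in the 5 comparisons, with its 95% interval from limma; filled points have an unadjusted p under 0.05 and dashed lines mark log2 fold changes of -1 and 1. Filled are TDG in LY10 (0.86), DNMT3B in cell2_LY (0.91) and DNMT3B, DNMT3A and TDG in cell16_LY against cell2_LY (-1.05, -0.70 and 0.69).

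The TDG values had opposite signs in the 2 experiments that began at the 2-cell stage. It had 1410.3 and 1099.7 normalized counts in LY_DMSO, 1636 and 1213 in cell16_LY and 811 and 944 in cell2_LY, so that both cell2_LY libraries lay below the other 4. The log2 fold change of cell2_LY against LY_DMSO was -0.51 (SE 0.28, limma adjusted p = 0.294), against 0.86 for LY10. The difference between these log2 fold changes was 1.37 (SE 0.36, adjusted p = 0.0558). It stayed between 1.19 and 1.54 with each of the 10 libraries left out in turn, the unadjusted p stayed under 0.05 each time and the adjusted p ran from 0.0266 to 0.181. With the term for Y-linked reads it was 1.45 (adjusted p = 0.0464). TDG was 1 of 8 enzymes with a p under 0.05 for this difference, against 23.5% of the 13019 genes, so such a difference was common in these data. The labels give a dose for LY10 only, so dose and experiment cannot be told apart. For DNMT3B, the 2 experiments gave 1.08 and 0.91, a difference of 0.18 (adjusted p = 0.915).

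In bESCs, the inhibitor was compared with culture medium. Without a replicate block, no enzyme had a p under 0.05 in limma, adjusted or not, against 0.0999% of the 16012 genes, and none passed the threshold that 0.0749% passed. Log2 fold changes ran from -0.28 for TET2 to 0.05 for TET3, with a median of -0.0728 against -0.00725 for all genes. With the replicate number as a block, 4 of 8 enzymes, DNMT3A, DNMT3B, TET1 and TET2, had an unadjusted p under 0.05 at the same log2 fold changes, all below 0 (limma, lowest adjusted p = 0.328), against 7.97% of genes, and none passed the threshold. The labels do not say whether equal numbers mark a shared culture. DNMT3B, the highest of the 8, had 44823 and 37092 normalized counts in bESC_LY and 48730 and 39351 in bESC_tifx, a log2 fold change of -0.10 (95% interval -0.60 to 0.39). In both groups, replicate 2 was above replicate 3.

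DNMT3A was the only 1 of 8 whose bESC groups did not overlap, against 14.2% of genes. It had 9554 and 9558 normalized counts in bESC_LY and 10528 and 10375 in bESC_tifx, a log2 fold change of -0.13 (95% interval -0.45 to 0.19). DNMT1 had 9649 and 10664 against 10105 and 10805, a log2 fold change of -0.04 (-0.40 to 0.31). UHRF1 had 10127 and 12701 against 9829 and 13387, a log2 fold change of -0.02 (-0.60 to 0.57). For both genes, the replicates of a group lay further apart than the groups.

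The demethylation genes overlapped in the bESCs as well. TET1 had 1970.0 and 3347 normalized counts in bESC_LY against 2311 and 3627 in bESC_tifx, a log2 fold change of -0.17 (95% interval -1.13 to 0.78). TET2 had 564 and 853 against 785 and 899, and TET3 had 455 and 1072 against 512 and 884. TDG had 3051 and 2713 against 3156 and 2676, a log2 fold change of -0.01 (-0.44 to 0.41). That interval overlaps the 95% interval of 0.32 to 1.39 of TDG in LY10 blastocysts, in another cell type and with another kit. The difference between these changes was not tested.

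The genes that work with these enzymes were listed by role, 69 in all, with 18 DNA replication genes beside them. In LY10 against DMSO, 7 of the 65 tested rose and 1 fell past the threshold, with a median log2 fold change of 0.35. Over all genes, 6.2% rose and 8.51% fell, so the 8 calls together are no more frequent than in all genes, and the genes below are given as single values. Of the partners of maintenance methylation, 1 of 7 rose, CDCA7, which activates the remodeler HELLS, at 1.64 (limma adjusted p = 0.0973). Of the methyl donor cycle, which makes S-adenosylmethionine, 2 of 10 rose, among them the folate enzyme MTHFD1 at 1.85 (adjusted p = 0.0783). Of the genes for TET partners and the TET cosubstrate 2-oxoglutarate, 1 of 7 rose, the mitochondrial isocitrate dehydrogenase IDH2, at 1.94 (adjusted p = 0.0783). Of base excision repair, 2 of 17 rose, the uracil glycosylase UNG at 1.40 (adjusted p = 0.192) and HMCES, which shields abasic sites, at 1.85 (adjusted p = 0.0904). Among 9 readers of methylated CpG, 1 rose and 1 fell, the latter being MBD2 at -1.05 (adjusted p = 0.136). None of the 8 genes that protect imprints and CpG islands and none of the 7 de novo cofactors and DNMT paralogs passed. DNMT3L, a partner of DNMT3A in the germ line, was at 0 to 1.02 RPM in the blastocysts.

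Of the DNA replication genes, 10 of 18 rose in LY10 and 0 fell, against 6.2% and 8.51% of all genes. All 18 had positive values, and their median log2 fold change was 1.07. CDC45, part of the replicative helicase, was at 2.12 (adjusted p = 0.113), MCM5 at 1.95 (adjusted p = 0.0786) and GINS2 at 1.42 (limma adjusted p = 0.0783). Among the enzymes, DNMT3A (1.02) and DNMT3B (1.08) had values of that size without passing the test, and DNMT1 (0.08) and UHRF1 (0.60) lay lower. The replication genes and the enzymes were not tested against each other.

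In cell2_LY against LY_DMSO, 4 of 64 pathway genes rose and 9 fell, against 8.71% and 8.34% of all genes. The share that fell was above that of all genes and the share that rose below it, which was not tested. The genes below are given as single values. The fallen genes held MTHFD1 at -1.29 (limma adjusted p = 0.0711) and MAT2B, a subunit of the S-adenosylmethionine synthase, at -1.44 (adjusted p = 0.0811). They also held the isocitrate dehydrogenases IDH1 at -1.27 (adjusted p = 0.0782) and IDH3A at -1.16 (adjusted p = 0.0814), and the repair genes POLB at -1.17 (adjusted p = 0.0782) and APEX1 at -1.11 (adjusted p = 0.0743). HELLS, the remodeler of maintenance methylation, fell to -1.04 (adjusted p = 0.0958) and DPPA3, which shields methylation in the zygote, to -1.59 (adjusted p = 0.0711). The last was the reader ZBTB33, at -1.03 (adjusted p = 0.177). The risen genes were OGDH, which consumes 2-oxoglutarate, at 1.94 (adjusted p = 0.0782), MBD2 at 1.38 (adjusted p = 0.11), the glycosylase SMUG1 at 1.31 (adjusted p = 0.135) and ZFP57, which guards imprints, at 1.14 (adjusted p = 0.0952). Of the 18 replication genes, 0 rose and 5 fell, among them MCM6 at -1.66 (adjusted p = 0.0711) and PRIM1 at -1.49 (adjusted p = 0.0711). The lowest adjusted p among these genes was 0.0711.

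Tested directly, the change differed between the LY10 and cell2_LY experiments for 18 of 64 pathway genes and for 13 of 18 replication genes at a p under 0.05, against the 23.5% of all genes given above. MTHFD1 differed by 3.14 (limma adjusted p = 0.0252), MCM6 by 2.71 (adjusted p = 0.0252) and MBD2 by -2.43 (adjusted p = 0.0429). The TDG value, like that of MTHFD1, was above 0 in LY10 and below 0 in cell2_LY, but in cell2_LY it did not pass the test.

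Treatment from the 16-cell stage left few calls against the control. Against LY_DMSO, 1 of 64 pathway genes rose, the reader ZBTB38 at 1.28 (limma adjusted p = 0.651), and no replication gene passed, against 3.25% of all genes that rose and 1.97% that fell. Against cell2_LY, 1 of 64 pathway genes rose and 10 fell, against 5.58% and 5.77% of all genes. The share that fell was thus above that of all genes, which was not tested. The fallen genes included ZFP57 at -1.27 (adjusted p = 0.193) and ZNF445 at -1.24 (adjusted p = 0.23), which both guard imprints, and LIG1, the ligase of lagging strands, at -1.07 (adjusted p = 0.193). ZBTB33 rose to 1.44 (adjusted p = 0.193). In bESCs, 0 of 66 pathway genes and 0 of 18 replication genes had a p under 0.05 in limma without a replicate block, adjusted or not.

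**Figure D5:**
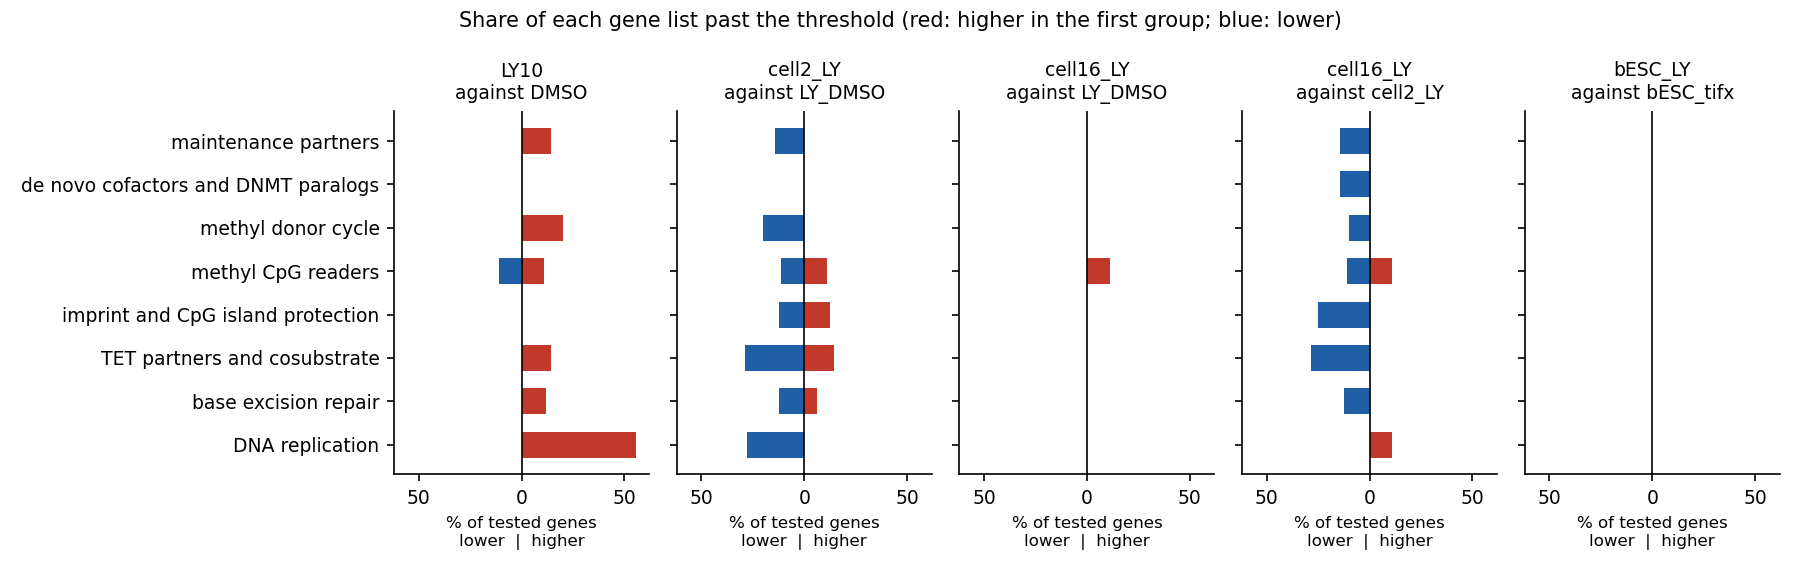
Share of the tested genes of each list past the threshold in the 5 comparisons, in percent, higher in the first group to the right (red) and lower to the left (blue). DNA replication shows 10 of 18 genes higher in LY10 and 5 of 18 lower in cell2_LY, and no list has a called gene in the bESCs.

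Cell type markers moved with some comparisons. In LY10 against DMSO, 0 of 10 trophectoderm markers passed the threshold, at sums of 6555 to 14159 RPM in DMSO and 8805 to 19011 in LY10. Of the 8 epiblast markers, POU5F1 rose by 1.23 (limma adjusted p = 0.0786), with sums of 1745 to 2013 and 1864 to 2183. Of 6 hypoblast markers tested, 3 had values above 0 and 3 below. HNF4A at 3.31 (adjusted p = 0.0783) and PDGFRA at 3.74 (adjusted p = 0.0783) rose, while GATA6 was at -0.73 (limma adjusted p = 0.132). Hypoblast sums overlapped, at 296 to 421 RPM in DMSO and 340 to 679 in LY10. Fibroblast markers fell in 2 of 5, DCN at -2.76 and COL1A2 at -1.22, with sums of 67.6 to 212 in DMSO and 24.4 to 37.8 in LY10. Of 4 cumulus markers tested, HSD3B1 fell to -2.27, with sums of 58.7 to 104 and 12.3 to 84.1. Of 2 oocyte markers tested, OOEP fell to -1.61, with sums of 15.3 to 73.4 and 10.8 to 17.9. In cell2_LY against LY_DMSO, 2 of 10 trophectoderm markers rose, GATA2 at 1.99 (adjusted p = 0.0711) and CDX2 at 2.78 (adjusted p = 0.0811). Of 8 epiblast markers, 2 fell, DPPA3 at -1.59 and ZFP42 at -1.35. Of 6 hypoblast markers tested, PDGFRA fell to -2.01, while 4 had values above 0. Hypoblast sums were 452 to 763 RPM in LY_DMSO and 444 to 525 in cell2_LY. Trophectoderm sums were 9347 to 10993 in LY_DMSO and 11058 to 15997 in cell2_LY, and epiblast sums were 1840 to 1996 and 1034 to 1389. Of 3 cumulus markers tested, STAR rose by 1.23 (adjusted p = 0.186), with sums of 27.9 to 105 in LY_DMSO and 52.2 to 257 in cell2_LY. In cell16_LY against cell2_LY, where DNMT3B was called, 2 of 10 trophectoderm markers fell, GATA2 at -1.94 (limma adjusted p = 0.186) and CDX2 at -1.84 (adjusted p = 0.227), with sums of 11481 to 15828 RPM in cell16_LY. No other marker list had a call there, nor had any in cell16_LY against LY_DMSO. The part of these cell type differences in the values of DNMT3A, DNMT3B and TDG was not tested.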

How the data were processed

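RNA was sequenced from 12 single blastocysts and 4 bESC libraries. The authors deposited 3 tables of FPKM per gene; their methods name both STAR and HISAT2 as the aligner, the processing notes name HISAT2 2.0.5, StringTie 1.3.3b, featureCounts 1.5.0-p3 and DESeq2 1.20.0, and the genome build is not given in the sources used here. The tables also hold the authors' DESeq2 comparisons, whose fold changes and p-values were left aside. All blastocyst gene positions of the 8 enzymes equaled ARS-UCD2.0, so that assembly is named.

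FPKM times gene length gave whole multiples of 1 step per library (100% of values within 0.02 reads), from which reads and the authors' library sizes were recovered. In some libraries these sizes were below the reads on genes, so they are not plain read totals. Scaling the second experiment by median of ratios gave the same 2476, 758 and 1649 genes past the threshold as the main fit. Normalized counts are these reads over library size, rescaled to the geometric mean of the library sizes in that table, so they compare libraries within 1 table only. limma 3.58.1 in R 4.3.3 (lmFit, eBayes with trend) was run on log2(normalized count + 1) for genes with a mean of at least 10, with Benjamini-Hochberg adjustment over all genes tested. Fold changes are on this scale, which understates changes of low genes. The 3 groups of the second experiment shared 1 fit. The difference between experiments was a contrast of the LY changes over 10 libraries. The threshold, an unadjusted p under 0.05 with a log2 fold change beyond 1 in either direction, is the one the study used. All tests are two-sided. The main fits of LY10 against DMSO, cell2_LY against LY_DMSO and bESC_LY against bESC_tifx were tested on simulated data, the other contrasts and settings were not.

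Libraries were grouped by their labels. Named were all 8 enzymes, listed genes past the threshold averaging 50 or more normalized counts or that define a cell type, and the 3 genes closest in pattern, though some genes the rule names are not reported here; of the listed genes named, CDX2 (mean 35.1), DCN (mean 48.9) and SOX17 are defining markers, and DNMT3L was added after its values were seen. The members and lists were chosen with earlier results of these data known. Strand use in counting is not given in the sources used here: DNMT1, UHRF1, DNMT3A and TET1 overlap small or antisense genes, whose reads could then not be told apart. Alternatives were other pseudocounts (0.5 and 5), filters (none, a mean of 50), scalings (median of ratios, quantile, reads on genes), log2(FPKM + 1), voom and sample weights, a replicate block, pairwise fits, a term for Y-linked reads and leaving out each library; reads on genes, the crossed block and the Y-linked term were chosen after the data were seen. No sequences are printed, since no sequence file was used here. Analyses ran in Python 3.11.15 with numpy 2.4.6, scipy 1.17.1 and pandas 2.3.3.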

Additional observations from a re-analysis of the deposited data

Results flagged for a closer look

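TDG was flagged because its LY change differed between the experiments that began at the 2-cell stage: the log2 fold change in LY10 exceeded that in cell2_LY by 1.37 (limma adjusted p = 0.0558). In the second experiment, 3 enzymes were flagged because their level differed between treatment times: DNMT3B at -1.05 (adjusted p = 0.193), DNMT3A at -0.70 (adjusted p = 0.237) and TDG at 0.69 (limma adjusted p = 0.258), each for cell16_LY against cell2_LY. All 4 had an unadjusted p under 0.05. No group held 4 or more libraries, so single libraries were not screened as outliers.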

How the results depend on the processing

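With 2 or 3 libraries a group, only calls past the threshold are counted here, over 8 enzymes; causes of the shifts were not tested. In LY10 against DMSO, 0 became 1 without a filter, with quantile scaling, with reads on genes as library size and with the replicate block, 2 with Y-linked reads as a term, 3 with sample weights, and 0 to 3 with a library left out (3 without DMSO replicate 3). In cell2_LY against LY_DMSO, 0 became 2 with quantile scaling and 1 with reads on genes, and 0 to 1 with a library left out; in cell16_LY against LY_DMSO it was 0 to 1. In cell16_LY against cell2_LY, 1 became 0 on log2(FPKM + 1), and 0 to 1 with a library left out. In bESCs it stayed 0 in all settings run. The count of enzymes that differed between experiments, 1, became 2 with Y-linked reads, and 1 to 2 with a library left out. Values near 0 turned their sign: DNMT1 in LY10 to -0.0161 with sample weights; TET1 in cell2_LY to 0.34 with quantile scaling, 0.20 with reads on genes and 0.095 with Y-linked reads; in cell16_LY against cell2_LY, UHRF1 to -0.19 with reads on genes and -0.40 with Y-linked reads and TET3 to -0.14 with reads on genes; and the DNMT3B difference between experiments to -0.07 with quantile scaling. With a library left out, log2 fold changes that turned ranged as follows. In LY10, DNMT1 ran from -0.13 to 0.26 and UHRF1 from -0.40 to 1.22. In cell2_LY, TET1 ran from -0.52 to 0.45 and TET3 from -0.0874 to 1.21. In cell16_LY against LY_DMSO, TET2 ran from -0.32 to 0.17, TET3 from -0.0165 to 1.28 and TDG from -0.038 to 0.39. In cell16_LY against cell2_LY, DNMT1 ran from -0.57 to 0.18, UHRF1 from -0.35 to 0.39, TET1 from -0.84 to 0.12 and TET3 from -0.0212 to 0.16. In bESCs, DNMT1 ran from -0.11 to 0.0294, UHRF1 from -0.24 to 0.21, DNMT3B from -0.26 to 0.0513, TET1 from -0.56 to 0.21, TET2 from -0.57 to 0.0224, TET3 from -0.56 to 0.67 and TDG from -0.13 to 0.10. The difference between experiments ran from -0.46 to 0.77 for DNMT3B and from -0.07 to 0.89 for TET1. Of the alternative values of single enzymes, 685 kept direction and side of the threshold, 19 came past it, 3 lost it and 37 reversed. TDG in LY10 had a p under 0.05 in all 12 other settings, and DNMT3B in cell2_LY and in cell16_LY against cell2_LY in all 14. These settings reuse the same libraries and are not independent, and median of ratios repeated the main fit in the second experiment. With a library left out, DNMT3B ran from 0.55 to 1.26 in cell2_LY and from -1.4 to -0.69 in cell16_LY against cell2_LY.

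The labels do not say what a shared replicate number stands for. Deviations of same-numbered libraries correlated at -0.12, 0.17 and -0.10 in LY10 and DMSO. They correlated at -0.23 to 0.12 in the second experiment and at 0.79 in the bESCs. With 2 libraries a group, both pairs must give the same value and crossed pairs its negative, so the bESC value is a single one. By that value the bESC numbers track a difference between libraries, but 2 pairs were too few to take them as paired. With the replicate block, genes past the threshold were 2060 (2097 without it) in LY10 and 146 (12 without it) in bESCs. There DNMT3A, DNMT3B, TET1 and TET2 had an unadjusted limma p under 0.05 at unchanged log2 fold changes (lowest adjusted p = 0.328), against 7.97% of all genes. With cell16_LY numbers crossed in the block, 2723, 928 and 1891 genes were past the threshold in the 3 comparisons of the second experiment (2476, 758 and 1649 without a block). Genes past the threshold split into 884 higher and 1213 lower in LY10, and into 1074 and 879 with quantile scaling. With reads on genes as library size, the median of all genes shifted to 0.23 and the split from 1265 and 1211 to 1833 and 676 in cell2_LY against LY_DMSO, and in cell16_LY against cell2_LY the median went to -0.17 and the split from 810 and 839 to 424 and 1259.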
